A study of Mus musculus with 27 samples.

Results

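The cells described here are fibroblasts of the mouse aorta in which at least 2 of 5 genes were read: Penk, Cxcl14, Ccl11, Inmt and Sult1e1. They were chosen from 4 single-cell RNA libraries by the values themselves. A cell barcode was kept with at least 500 genes, at least 1000 UMIs (unique molecular identifiers, each counting 1 captured RNA molecule) and at most 15% mitochondrial UMIs. It passed a fibroblast gate with at least 10 UMIs summed over the matrix genes Col1a1, Col1a2, Col3a1 and Dcn and with 0 UMIs of Ptprc (leukocytes), Pecam1 (endothelium) and Myh11 (smooth muscle). A gated cell became a Penk-set cell when it held more detected genes of the Penk set than of each of 3 other sets of 5 genes. These were the Pi16 set (Pi16, Cd248, Sema3c, Gfpt2, Has1), the Fmod set (Fmod, Comp, Thbs4, Col8a1, Cpxm2) and the Cilp set (Cilp, Sfrp4, Prg4, Hmcn2, Dkk2). This gave 571 Penk-set cells among 9968 gated fibroblasts and 43812 kept cells. The Pi16 set took 3848 gated cells, the Fmod set 1570 and the Cilp set 452, and 3527 stayed unassigned.

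Fibroblasts of the vessel wall and its surrounding fat make the collagen-rich matrix, and they differ in where they sit and in which secreted factors they make. Penk encodes proenkephalin, the precursor of the opioid peptides called enkephalins. Cxcl14 and Ccl11 encode chemokines, and Ccl11 (eotaxin) attracts eosinophils through the receptor Ccr3. Inmt encodes a methyltransferase acting on indoleamines such as tryptamine, and Sult1e1 encodes the sulfotransferase that inactivates estrogens. In the GRCm38 mouse genome Penk lies at chr4:4133531-4138819 (minus strand), Cxcl14 at chr13:56288643-56296551 (minus), Ccl11 at chr11:82057823-82062955 (plus), Inmt at chr6:55170626-55175043 (minus) and Sult1e1 at chr5:87575969-87591594 (minus).

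All mice were labelled C57BL/6 and received angiotensin II (Ang II), a peptide hormone that raises blood pressure, for 28 days. The series title places a KLF10 and IL-9 axis in CD4+ T cells behind perivascular fibrosis. The libraries were labelled by genotype as TKO or Cre, which the labels do not define, and neither the cells that lack a gene nor the deleted part is given there. The 4 single-cell libraries came from digested non-stripped aorta (2 TKO, 2 Cre) and were sequenced in pairs, and which libraries shared a run is not given. Bulk RNA was read in isolated aortic fibroblasts (3 TKO, 3 Cre), non-stripped aorta (3 TKO, 3 Cre) and stripped aorta (2 TKO, 4 Cre), and in TKO aorta given a monoclonal antibody to IL-9 (2) or control IgG (3), all with Ang II. Nothing in the labels says that replicates came from separate animals, so p-values measure the spread between these samples.

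The libraries differed in depth and the Penk-set cells were unevenly spread. TKO replicates 1 and 2 held 15365 and 7425 kept cells with medians of 1593 and 1409 UMIs, and Cre replicates 1 and 2 held 14489 and 6533 with medians of 2768 and 1683 UMIs. TKO replicates 1 and 2 held 54 and 45 of the 571 Penk-set cells, against 433 and 39 in Cre replicates 1 and 2. Kept barcodes shared by any pair of libraries numbered 12 to 68, at most 0.552% of the smaller library. No doublet caller was run. The bulk libraries held 17179257 to 38633457 counts. Klf10 was not absent from most libraries labelled TKO, with 822, 696 and 0 counts in non-stripped TKO aorta against 1049, 943 and 1400 in Cre aorta. In Penk-set cells Klf10 had 5 and 3 UMIs in TKO and 85 and 2 in Cre. Scaled to the summed UMIs of these cells (CPM), Klf10 stood at 59.4 and 46.4 in TKO against 89.8 and 30.9 in Cre. The genotypes thus overlap for Klf10 in these cells. Il9r, the IL-9 receptor gene, had 1 UMI in Penk-set cells, in TKO replicate 2.

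Penk and Ccl11 were the leading genes of the set and Cxcl14 was a minority gene. These values describe how the rule chose the cells. Penk, proenkephalin, was read in 72.2% and 71.1% of Penk-set cells of TKO replicates 1 and 2 and in 80.1% and 82.1% of those of Cre replicates 1 and 2. After each cell was thinned to 1000 UMIs the Penk shares were 63.0% and 53.3% in TKO and 61.4% and 56.4% in Cre, so the genotypes overlap. Ccl11, eotaxin, was read in 63.0% and 80.0% of TKO and 78.8% and 79.5% of Cre Penk-set cells. Inmt followed with 57.4% and 40.0% in TKO and 42.5% and 35.9% in Cre. Cxcl14 was read in at most 24.9% of the cells of any library (22.2% in each TKO library, 24.9% and 17.95% in Cre), although it stands among the genes that name the set. Sult1e1 was read in 9.26% and 4.44% of TKO and 29.6% and 10.3% of Cre Penk-set cells. Cre replicate 1 stood above the other libraries for Sult1e1, and after each cell was thinned to 1000 UMIs its share was 23.3%, against 7.69% in Cre replicate 2 and 7.41% and 0 in the TKO libraries.

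The same genes were present at lower shares outside the set. Among the other gated fibroblasts Penk was read in 6.83% and 5.02% of TKO cells and in 19.9% and 6.83% of Cre cells. Ccl11 was read in 9.63% and 13.6% of TKO and in 32.2% and 21.1% of Cre other fibroblasts. In endothelial cells, gated on UMIs of both Pecam1 and Cdh5 with none of Ptprc and taken as cells that should lack Penk, it was read in 2.36% and 1.94% of TKO and 3.06% and 0 of Cre cells, at median depths of 1719 and 1589 against 2805 and 1890 UMIs. The share of endothelial cells meeting the same set rule was 5 of 677 and 1 of 258 in TKO, against 13 of 1045 and 0 of 210 in Cre, or 0.739% and 0.388% against 1.24% and 0. That 0 allows up to 1.74%. Intervals given here are exact Clopper-Pearson intervals at 95% and cover counting error only.

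**Figure D1:**
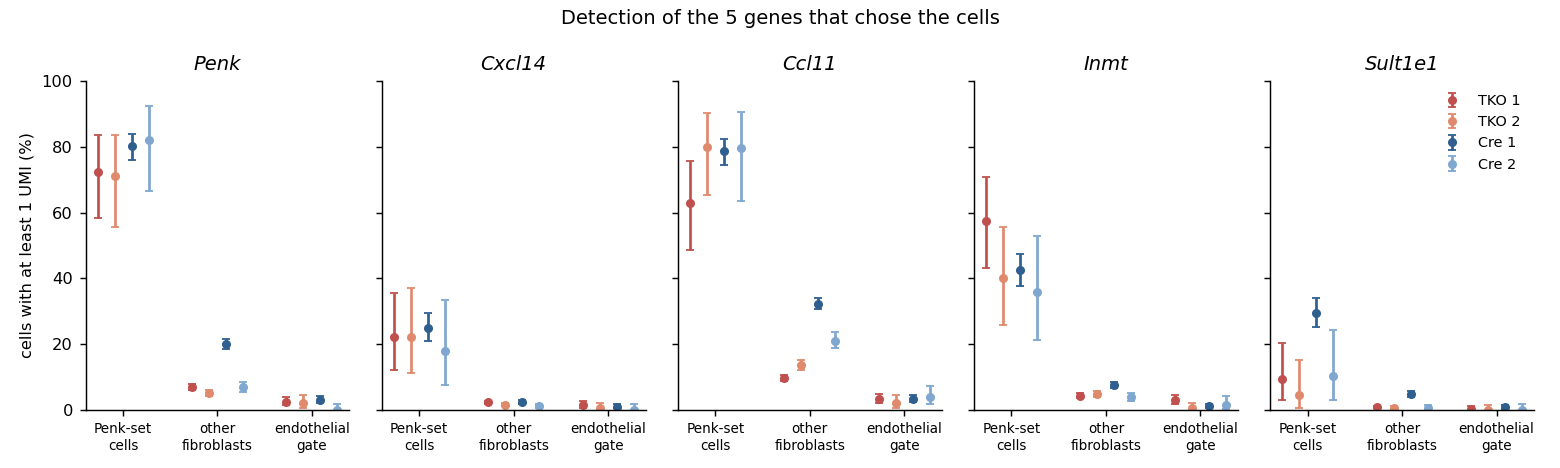
Percent of cells with at least 1 UMI of each of the 5 genes, in Penk-set cells, other gated fibroblasts and gated endothelial cells of the 4 libraries (points, with 95% Clopper-Pearson intervals). Penk and Ccl11 lie between 63.0% and 82.1% in the Penk-set cells of the 4 libraries, while Cxcl14 stays at or below 24.9%.

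Within the set, most cells carried the minimum of 2 genes. Of the 571 cells, 337 (59.0%) held 2 of the 5 genes, 196 (34.3%) held 3, 37 (6.48%) held 4 and 1 held all 5. Penk and Ccl11 were read together in 330 cells (57.8%), Penk with Inmt in 178, Ccl11 with Inmt in 163, Penk with Sult1e1 in 118 and Cxcl14 with Ccl11 in 115. The single most frequent combination was Penk with Ccl11 and no other gene of the set, in 143 cells (25.0%). The combinations differed between libraries. In TKO replicate 1 the Penk and Inmt combination came first (15 of 54 cells, against 11 with Penk and Ccl11), while in TKO replicate 2 Penk with Ccl11 led with 18 of 45 cells.

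Cells on either side of the threshold can be set side by side with Agt, Sparcl1 and Hsd11b1, which the rule did not use. These genes were picked for their ratios in the same cells, so their values describe the threshold and support nothing. Levels are given from here on as CPM, the UMIs of a gene scaled to the summed UMIs of its class. Agt, which encodes angiotensinogen, the precursor of angiotensin II, stood at 77.1 CPM in the 215 cells just inside (2 genes of the Penk set, 1 of the best other set) and at 13.2 CPM in the 177 cells just outside (2 and 2). In the 136 cells with 1 Penk-set gene and no gene of another set it was 13.4 CPM. Sparcl1, a matrix glycoprotein gene of the SPARC family, stood at 1385 CPM just inside, against 871 and 1145 CPM in those groups outside, with all libraries summed. Hsd11b1, whose enzyme regenerates active glucocorticoid, stood at 287 CPM just inside, against 166 and 179 CPM outside. Cells with 3 or more of the genes (234) stood at 62.1 CPM of Agt, 1353 CPM of Sparcl1 and 260 CPM of Hsd11b1. Cre replicate 1 gave 145 of the 215 cells just inside, 112 of the 177 and 55 of the 136 outside, and the order of Sparcl1 differed between libraries. Sparcl1 stood at 881 CPM just inside against 277 and 589 CPM outside in TKO replicate 1, and at 390 CPM against 206 and 338 CPM in TKO replicate 2. In Cre replicate 1 it stood at 1647 CPM just inside, above the 1125 CPM of the cells with 2 and 2 genes and under the 1839 CPM of those with 1 gene. In Cre replicate 2 it stood at 275 CPM just inside, under both groups outside (304 and 852 CPM). Agt rested on 33 UMIs just inside and on 5 and 3 UMIs outside.

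Penk-set cells made up a smaller share of the gated fibroblasts in both TKO libraries than in either Cre library, but most of the distance came from Cre replicate 1. They were 1.55% (interval 1.17 to 2.02) and 2.32% (1.70 to 3.096) in TKO replicates 1 and 2, against 12.6% (11.5 to 13.7) and 3.52% (2.52 to 4.78) in Cre replicates 1 and 2. The intervals of TKO replicate 2 and Cre replicate 2 overlap. The means were 1.94% ± 0.545 in TKO and 8.05% ± 6.41 in Cre (SD, n = 2 each), a difference of −6.11 percentage points. The exact two-sided permutation test gave p = 0.333, which is the smallest p that 2 against 2 libraries allow. Without Cre replicate 1 the difference was −1.58. Each cell was also thinned to 1000 UMIs before the rule, with the fibroblast gate lowered to 4 matrix-gene UMIs, so that more cells passed the gate. This gave 1.08% and 1.43% in TKO, against 9.51% and 2.27% in Cre. Asking for 3 genes of the set gave 0.345% and 0.361% in TKO, against 5.95% and 0.903% in Cre. As shares these values cannot tell fewer Penk-set cells from more of the other gated fibroblasts, or from less RNA of these genes per cell. Cre replicate 1 also differed in its RNA of pancreatic enzyme genes, a list chosen after seeing the data. This was in 81.8% of its Penk-set cells, against 0 and 2.22% in TKO and 7.69% in Cre replicate 2. Whether this difference bears on the share was not tested.

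**Figure D2:**
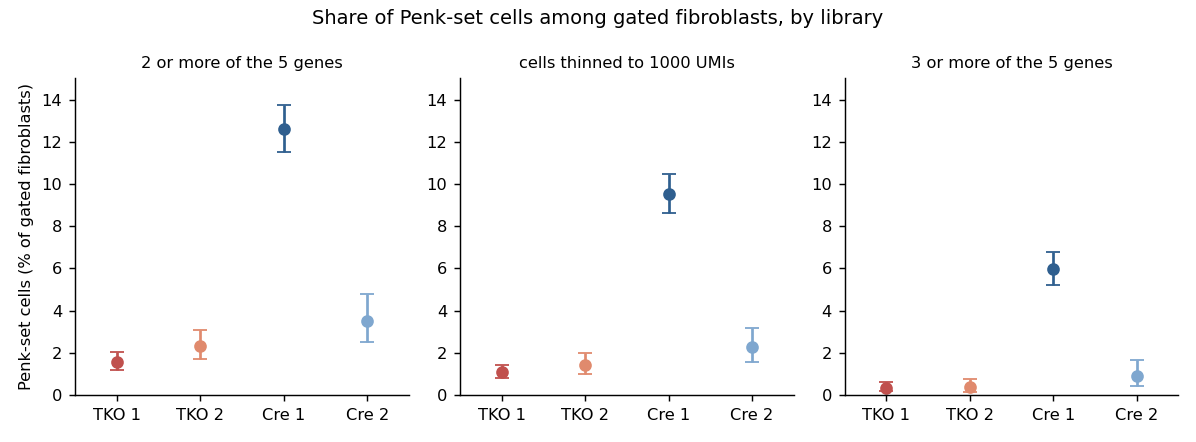
Penk-set cells as a percent of gated fibroblasts in each library under the rule, after thinning to 1000 UMIs (gate at 4 matrix-gene UMIs) and with at least 3 of the 5 genes (points, with 95% Clopper-Pearson intervals). Cre replicate 1 stands far above the other libraries (12.6% under the rule), and Cre replicate 2 (3.52%) lies above both TKO libraries (1.55% and 2.32%) with an interval that overlaps that of TKO replicate 2.

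Beyond the genes of the rule, Sparcl1, Lpl, Cp, Igfbp3 and Cxcl12 stood higher in Penk-set cells than in the other gated fibroblasts, and Cd55, Ccn3, Ugdh, Aspn and Igfbp5 stood lower. The cells were chosen on expression, so this contrast is a description and carries no test. Of 10816 genes with at least 100 UMIs, 49 were at least 2-fold higher in Penk-set cells in every library (0.453%) and 27 at least 2-fold lower (0.250%). The median log2 ratio over all of these genes was 0.04. With at least 3 genes of the set 25 were higher, 14 of them among the 49, and without Cre replicate 1 there were 63, 40 of them among the 49.

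Sparcl1 showed the highest median among the genes with at least 100 CPM in the higher class. It was also read in 43.3% and 51.2% of gated endothelial cells in TKO and in 43.5% and 48.1% in Cre. In Penk-set cells it was read in 55.6% and 46.7% in TKO and in 81.5% and 38.5% in Cre. It stood at 784 and 573 CPM in Penk-set cells of TKO replicates 1 and 2, against 142 and 80.2 CPM in their other fibroblasts, and at 1634 and 664 CPM against 237 and 108 CPM in Cre replicates 1 and 2 (median log2 ratio 2.70, SD 0.166 over 4 libraries). Lpl, the lipoprotein lipase that frees fatty acids from circulating fat, stood at 1900 and 1702 CPM against 290 and 252 CPM in TKO, and at 2079 and 834 CPM against 484 and 235 CPM in Cre (2.41). The values of both genes in Penk-set cells exceeded those in the other fibroblasts in all 4 libraries, with no overlap between the classes. Cxcl12, the chemokine that holds leukocytes and progenitors through Cxcr4, stood at 1651 and 929 CPM against 371 and 231 CPM in TKO, and at 1613 and 1066 CPM against 355 and 203 CPM in Cre (2.17). Cxcl13, a B cell chemokine, stood at 820 and 340 CPM against 186 and 93.3 CPM in TKO, and at 1273 and 1143 CPM against 326 and 101 CPM in Cre (2.05). Its ratio varied most between libraries, with 3.50 in Cre replicate 2 and 1.87 to 2.14 in the other 3.

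Of the other leading genes, Cp, the copper-carrying ferroxidase ceruloplasmin, had a median log2 ratio of 2.32, the metalloreductase gene Steap4 of 2.25 and the secreted peroxidase gene Gpx3 of 1.77. Among signalling genes, Igfbp3, which binds insulin-like growth factors, was at 2.27, Lifr, a receptor chain for leukemia inhibitory factor, at 1.84 and the growth factor gene Gdf10 at 1.10. The others in this list were Tmem176a (1.81), Ms4a4d (1.66), Sned1 (1.45), Tmem176b (1.37), the interferon-inducible Ifi205 (1.33) and Srpx (1.22). Col4a1 and Col4a2, the paired chains of the main type IV collagen of basement membranes, were at 1.34 and 1.22. Col4a1 stood at 831 and 944 CPM against 368 and 259 CPM in TKO, and at 1450 and 603 CPM against 572 and 239 CPM in Cre.

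The genes lower in Penk-set cells were led by Cd55, a complement decay factor (median log2 ratio −2.45), Ccn3 (−2.29), Ugdh, which makes the UDP-glucuronate used for glycosaminoglycans (−2.28), the fibril-associated collagen gene Col12a1 (−2.25) and Aspn, the proteoglycan asporin (−2.23). Igfbp5, another binder of insulin-like growth factors, had the largest levels among them. It stood at 772 and 898 CPM in Penk-set cells against 2936 and 3350 CPM in the other fibroblasts of TKO, and at 993 and 1020 CPM against 7826 and 5715 CPM in Cre (−2.21). Cd200 (−2.14), Anxa3 (−2.05), Flrt2 (−1.93) and the microfibril gene Mfap4 (−1.91) completed the list. Igfbp3 and Igfbp5 thus stood on opposite sides of the same contrast.

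**Figure D3:**
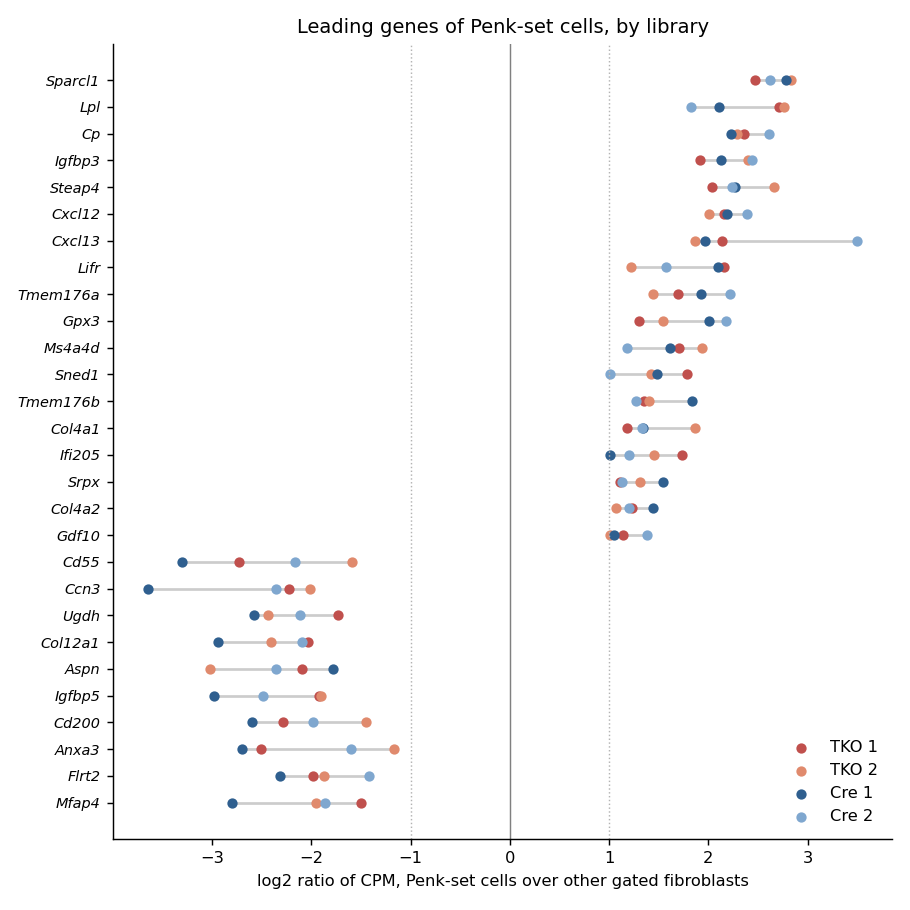
Log2 ratio of CPM in Penk-set cells over other gated fibroblasts for the 18 leading higher and 10 leading lower genes, 1 point per library. The lower class was set at 3 where it held under 3 UMIs. All points lie beyond 1 or −1 (dotted lines), as the choice of the genes requires, and Cxcl13 spreads most among the higher genes.

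Several genes with high ratios fell under the limit of 100 CPM for naming and are given because of their ratios, seen first. Agt, angiotensinogen, had 4 and 2 UMIs in Penk-set cells of TKO, in 4 and 1 cells, and 67 and 4 UMIs in those of Cre, in 42 and 3 cells. These came to 47.5 and 31.0 CPM in TKO and 70.7 and 61.8 CPM in Cre. The far larger class of other fibroblasts held 12 and 0 Agt UMIs in TKO and 41 and 2 in Cre (median log2 ratio 4.68). In these ratios only the lower class was set at 3 where it held under 3 UMIs. Ren1 and Agtr1b, a renin gene and an Ang II receptor gene, had 0 UMIs in Penk-set cells, Agtr1a, the other receptor gene, had 2 and 1 in TKO and 8 and 0 in Cre, and Ace, the converting enzyme gene, had 13 and 7 in TKO and 104 and 1 in Cre. The growth factor gene Fgf10 stood at 214 and 61.9 CPM against 24.6 and 19.9 CPM in TKO, and at 212 and 139 CPM against 36.6 and 23.5 CPM in Cre (2.55). Vtn, vitronectin, was at 3.23, Rgs16 at 3.23, Thsd7a at 2.65, Hsd11b1 at 2.47, Ggt5 at 2.36, the lipase inhibitor gene G0s2 at 2.16, the complement gene C7 at 1.92, the adipogenic transcription factor gene Cebpa at 1.51 and Hgf at 1.38. Several of these rested on few UMIs outside Cre replicate 1. In Penk-set cells Rgs16 had 4 and 2 UMIs in TKO and 49 and 1 in Cre. Vtn had 5 and 3 in TKO and 91 and 2 in Cre, and Ggt5 5 and 2 in TKO and 99 and 6 in Cre. Hgf had 3 and 1 in TKO and 43 and 2 in Cre, and Cebpa 2 and 3 in TKO and 20 and 3 in Cre.

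The gene lists were chosen with earlier results of these data known, so their values are a description. Over all 10816 genes, 0.453% were at least 2-fold higher in every library and 0.250% lower. By gene list, the fat precursor genes showed the highest median, with 4 of 21 measured genes at least 2-fold higher in every library (Sparcl1, Lpl, G0s2 and Cebpa), 0 lower and a median of 0.68. Of these, Cebpa rested on 2 and 3 UMIs in Penk-set cells of TKO and 20 and 3 in those of Cre. Pparg, the master regulator of fat cells, had 1 and 0 UMIs in TKO and 14 and 3 in Cre, and Pdgfra was at 1.09 without reaching 2-fold in every library. Among enzymes for steroids and foreign compounds 2 of 23 were higher (Hsd11b1 and Aox3) and 0 lower, with a median of 0.50, and Adh1, an alcohol dehydrogenase that also oxidises retinol, reached a median of 2.52 without passing in Cre replicate 2. Of 19 basement membrane genes Col4a1 and Col4a2 were higher, with a median of 0.16. Of 19 complement genes Vtn and C7 were higher and Cd55 lower (0.31), and of 19 stromal cytokine genes Cxcl12 and Cxcl13 were higher (0.12). In the chemokine list Cxcl12 was higher and Ackr3, a receptor that clears Cxcl12, lower (−1.76). Ackr3 was read in 15.01% to 20% of Penk-set cells across libraries, against 57.4% to 73.98% of Pi16-set cells. The shares were 5% to 32.4% of Fmod-set, 24.2% to 35.7% of Cilp-set and 20.1% to 26.3% of unassigned cells. Low Ackr3 thus set Penk-set cells apart from Pi16-set cells, but not from Fmod-set cells. The fibrosis and crosslinking genes had a median of −0.45 over 27 genes, with Timp1 lower and 0 higher.

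The enkephalin pathway beyond Penk showed little in these cells. None of its 6 other measured genes reached 2-fold in every library (median −0.23). Pam, whose enzyme amidates peptides, stood at 689 and 665 CPM against 1441 and 2037 CPM in TKO, and at 438 and 757 CPM against 866 and 990 CPM in Cre. Mme, neprilysin, the peptidase that degrades enkephalins, had 4 and 6 UMIs in TKO and 78 and 0 in Cre. Pcsk2, a convertase that cuts proenkephalin, had 0 UMIs in 3 libraries and 9 in Cre replicate 1. The opioid receptor genes Oprm1, Oprd1, Oprk1 and Oprl1 and the eotaxin receptor gene Ccr3 had 0 UMIs in Penk-set cells.

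Promoter windows were read for these genes from RefSeq (build GRCm38.p6, 250 bases before and 50 after the annotated start). Of 24 genes looked up (the 5 of the set, the 18 leading higher genes and Agt), 20 matched a promoter. Some genes have several annotated starts, and a gene counts where any of its windows matched. Each window was searched on both strands for TATAAA, the core of a TATA box, and for TTGCNNAA, a spelling of the site of C/EBP factors such as the product of Cebpa. TATAAA was in 6 of the 20 and TTGCNNAA in 4, and Cp, Steap4 and Cxcl13 held both, against 13.6%, 10.8% and 1.94% of all 32851 RefSeq promoters for TATAAA, TTGCNNAA and both. These background shares count single windows, while the 20 are genes, some with several windows, so the rates are not alike. A match is only a match of letters. The windows of Inmt (chr6:55174941-55175240, minus strand), Agt (chr8:124569657-124569956, minus strand), Cp (chr3:19956999-19957298, plus strand, the second of its starts), Steap4 (chr5:7960222-7960521, plus strand) and Cxcl13 (chr5:95956689-95956988, plus strand) are shown because they hold these motifs, with both motifs and their reverse complements in capitals. TATAAA first starts 30 bases before the start site in Agt and 46 in Cxcl13, and 80 before the RefSeq start in Inmt, where it stands in 2 nearby copies. In Cp, matches on both strands overlap, the first of them starting 27 bases before the start. In Steap4 it lies 215 bases before the start, on the opposite strand.
Inmt: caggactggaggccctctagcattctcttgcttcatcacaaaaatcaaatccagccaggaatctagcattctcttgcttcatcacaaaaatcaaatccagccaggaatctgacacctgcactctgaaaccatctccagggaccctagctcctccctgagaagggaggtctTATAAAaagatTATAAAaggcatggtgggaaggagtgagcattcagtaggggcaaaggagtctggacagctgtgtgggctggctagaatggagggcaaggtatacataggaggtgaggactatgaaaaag
Agt: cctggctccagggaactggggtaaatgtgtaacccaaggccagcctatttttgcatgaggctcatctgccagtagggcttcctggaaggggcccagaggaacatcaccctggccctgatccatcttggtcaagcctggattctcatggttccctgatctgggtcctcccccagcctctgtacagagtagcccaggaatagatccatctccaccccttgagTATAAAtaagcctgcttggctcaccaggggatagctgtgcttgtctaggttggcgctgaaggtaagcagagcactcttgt
Cp: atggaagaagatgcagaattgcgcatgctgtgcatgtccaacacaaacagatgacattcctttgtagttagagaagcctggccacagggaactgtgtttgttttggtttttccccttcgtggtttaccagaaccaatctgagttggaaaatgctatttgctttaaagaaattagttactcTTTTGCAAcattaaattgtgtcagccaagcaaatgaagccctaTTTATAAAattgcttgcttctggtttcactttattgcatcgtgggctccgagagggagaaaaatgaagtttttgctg
Steap4: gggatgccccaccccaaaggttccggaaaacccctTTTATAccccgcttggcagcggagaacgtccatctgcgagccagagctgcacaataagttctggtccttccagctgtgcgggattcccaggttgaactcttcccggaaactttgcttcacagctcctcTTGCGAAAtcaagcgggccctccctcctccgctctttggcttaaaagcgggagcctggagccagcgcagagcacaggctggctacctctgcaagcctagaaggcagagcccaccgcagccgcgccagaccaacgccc
Cxcl13: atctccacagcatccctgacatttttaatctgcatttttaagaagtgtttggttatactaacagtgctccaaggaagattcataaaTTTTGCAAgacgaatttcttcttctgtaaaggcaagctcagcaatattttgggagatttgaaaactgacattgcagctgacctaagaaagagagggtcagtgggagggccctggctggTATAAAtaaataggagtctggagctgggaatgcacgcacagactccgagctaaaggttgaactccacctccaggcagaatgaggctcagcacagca

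Col4a1 and Col4a2, higher together in all 4 libraries, lie head to head on chromosome 8. Their starts are 21 bases apart on opposite strands, and the windows of Col4a1 (chr8:11312777-11313076, minus strand) and Col4a2 (chr8:11312555-11312854, plus strand) share 78 bases. The shared bases are in capitals, and each is the reverse complement of the other. Neither window holds TATAAA or TTGCNNAA.
Col4a1: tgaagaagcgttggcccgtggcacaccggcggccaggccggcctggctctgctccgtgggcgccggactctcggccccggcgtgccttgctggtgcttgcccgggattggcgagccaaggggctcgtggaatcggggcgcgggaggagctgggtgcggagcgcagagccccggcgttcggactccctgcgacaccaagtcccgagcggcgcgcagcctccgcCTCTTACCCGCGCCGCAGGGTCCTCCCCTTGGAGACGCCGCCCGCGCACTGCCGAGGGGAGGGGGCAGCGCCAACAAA
Col4a2: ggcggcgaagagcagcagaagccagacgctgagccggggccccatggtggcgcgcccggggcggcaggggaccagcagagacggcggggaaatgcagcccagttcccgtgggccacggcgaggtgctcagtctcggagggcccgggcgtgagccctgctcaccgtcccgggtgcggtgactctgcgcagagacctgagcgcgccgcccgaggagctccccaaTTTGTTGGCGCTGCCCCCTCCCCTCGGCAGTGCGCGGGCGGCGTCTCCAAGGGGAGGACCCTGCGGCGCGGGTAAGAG

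Markers of other cell types in Penk-set cells were low for some classes and not for others, and their part in the ratios above was not tested. All 12 general fibroblast markers were read in the Penk-set cells of every library, with a summed 8622 and 7196 CPM in TKO and 10720 and 6798 CPM in Cre. Adipocyte markers summed to 11.9 and 31.0 CPM in TKO and 45.4 and 216 CPM in Cre, with Cidec and Lep at 0 in every library. Mesothelial markers summed to 23.8 and 31.0 CPM in TKO and 34.8 and 77.3 CPM in Cre, and endothelial markers to 249 and 232 against 53.9 and 216 CPM. Smooth muscle and pericyte markers summed to 950 and 851 CPM in TKO and 653 and 865 CPM in Cre. T and B cell markers summed to 630 and 944 CPM in TKO and 723 and 1885 CPM in Cre. Macrophage markers summed to 772 and 3451 CPM in TKO and 926 and 803 CPM in Cre, and in TKO replicate 2 a single cell gave 96 of the 144 Lyz2 UMIs. Hemoglobin and other erythrocyte RNA summed to 36460 and 26930 CPM in TKO and 17820 and 22050 CPM in Cre, against 30740 and 23380 CPM and 11700 and 17750 CPM in the other gated fibroblasts. In Cre replicate 1, RNA of 8 pancreatic enzyme genes, a list chosen after seeing the data, was in 81.8% of Penk-set cells, 85.05% of other fibroblasts and 89.2% of endothelial cells, at 1544, 1258 and 1270 CPM, while Penk-set cells of the other libraries held 0 to 46.4 CPM.

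The next comparison asks which genes differ between TKO and Cre within Penk-set cells. No gene passed the test at this depth. UMIs were summed per library over Penk-set cells (84199 and 64621 in TKO, 947106 and 64727 in Cre), and 0 of 1147 genes passed in edgeR's quasi-likelihood test (adjusted p below 0.05; 0.00%), with 27 at an unadjusted p below 0.05. DESeq2 called 0 as well, with 7 at an unadjusted p below 0.05. Without Cre replicate 1 there were 3 calls and without Cre replicate 2 there were 24, each time with 1 Cre library assumed to vary like the TKO libraries. In data simulated with 4-fold changes for this comparison, 154 of 173 changed genes were called, with 7 false calls. The simulation gave every gene the same spread and held no genes carried by single cells. It therefore does not say how many such changes the test would miss in these cells. The genes the rule used were left out of the test of the real counts. Cre replicate 1, with most of the UMIs, leaves the 3 other libraries at 39 to 54 cells each.

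Ranked by p, the leading genes on either side are named, and each fails the correction. Sfrp2, a Wnt modulator, stood at 178 and 294 CPM in TKO against 27.5 and 108 CPM in Cre (log2 fold change 2.35 ± 0.74 SE, adjusted p = 0.9996). The matrix signalling gene Ccn1 stood at 178 and 248 CPM in TKO against 75.0 and 92.7 CPM in Cre (1.37 ± 0.51), and Thbs1, thrombospondin 1, at 404 and 449 CPM against 237 and 124 CPM (1.08 ± 0.41). In Thbs1 a single cell gave 25 of 34 UMIs in TKO replicate 1 and 19 of 29 in TKO replicate 2, and without the highest cell of each library the Thbs1 value was −0.34. Btg2, an immediate early gene, stood at 439 and 325 CPM in TKO against 218 and 124 CPM in Cre (1.01 ± 0.40). Acta2, smooth muscle actin, stood at 178 and 294 CPM in TKO against 68.6 and 139 CPM in Cre (1.38 ± 0.54), and a single cell held 15 of its 19 UMIs in TKO replicate 2. The libraries of the genotypes did not overlap for these genes, as for the genes lower in TKO. The genes were chosen by their p in the same libraries, so the separation adds no support.

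On the lower side, Car3, a carbonic anhydrase abundant in fat and muscle, came closest to passing. It stood at 23.8 and 0 CPM in TKO against 289 and 371 CPM in Cre (−4.60 ± 0.72, adjusted p = 0.0757). A single cell held 191 of the 274 Car3 UMIs of Cre replicate 1 and another all 24 of Cre replicate 2. Car3 passed in each fit that left out 1 library (adjusted p = 4.739e-04 without TKO replicate 1, 0.0128 without TKO replicate 2, 0.0189 without Cre replicate 1 and 3.023e-05 without Cre replicate 2), without the low-count filter and with the replicate block. It did not pass by DESeq2 (adjusted p = 0.152) or with the cells of most UMIs left out (0.0757). It was also not called with at least 3 genes of the set, after thinning, at no more than 10% mitochondrial UMIs or without the highest cell of each library, where no gene was called. Rnd3 stood at 83.1 and 46.4 CPM in TKO against 191 and 216 CPM in Cre (−1.63 ± 0.53). Fxyd1, a small membrane protein gene, stood at 143 and 77.4 CPM in TKO against 279 and 201 CPM in Cre (−1.19 ± 0.44). Spon1, a secreted matrix protein, stood at 107 and 0 CPM in TKO against 315 and 139 CPM in Cre (−2.12 ± 0.77). These UMIs were spread over many cells of Cre replicate 1, with Spon1 in 157 of 433 cells.

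By list, 0 members passed in any of the lists. The 18 leading higher genes had a median log2 fold change of −0.30 with 13 of 18 negative. Over all 1147 genes tested the median was −0.05, with 631 negative and 516 positive. The genes of a list come from the same libraries, so their signs are not independent. All 11 basement membrane genes tested were negative (median −0.40) and all 7 steroid and foreign compound enzymes (−0.43), while 19 of 22 immediate early and dissociation genes were positive (0.33) and 7 of 11 fibrosis genes (0.34). Erythrocyte genes were positive in 4 of 4 (0.60), and general fibroblast markers negative in 9 of 12 (−0.15).

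A further test asked whether the genotype difference itself differed between Penk-set cells and the other gated fibroblasts of the same libraries. It called 11 of 10943 genes (0.101%), 3 with a higher (0.0274%) and 8 with a lower difference (0.0731%) in Penk-set cells, with 419 at an unadjusted p below 0.05, while DESeq2 called 0 with 136 at that level. Without Cre replicate 1 there were 8 calls and without Cre replicate 2 there were 31. In the other gated fibroblasts edgeR called 0 of 12507 genes between TKO and Cre, with 683 at an unadjusted p below 0.05.

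Among the called genes, Mgp and Igf1 encode proteins that fibroblasts secrete, and each was read in at least 16 Penk-set cells of every library. Mgp, matrix Gla protein, an inhibitor of vascular calcification, stood at 1841 and 727 CPM in TKO against 2913 and 2657 CPM in Cre Penk-set cells. In the other fibroblasts it stood at 4641 and 3817 CPM in TKO against 3793 and 2592 CPM in Cre. The genotype difference in Penk-set cells minus that in the other fibroblasts was −1.71 ± 0.25 on the log2 scale (SE, adjusted p = 1.235e-08, and 0.328 without TKO replicate 2), and a single cell gave 112 of the 172 Mgp UMIs in Cre replicate 2. Igf1, insulin-like growth factor 1, stood at 915 and 727 CPM in TKO against 1708 and 788 CPM in Cre Penk-set cells, and at 940 and 739 CPM against 657 and 367 CPM in the other fibroblasts (−1.43 ± 0.29, adjusted p = 7.82e-04). The direction of Mgp and Igf1 between genotypes was thus opposite in the classes. Neither gene passed within a class (for Mgp adjusted p = 0.9996 in Penk-set cells and 1.0 in the others), but with the replicate block Mgp passed within Penk-set cells.

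Several of the other calls rested on 1 cell. Slpi, a secreted protease inhibitor, had all 30 UMIs of TKO replicate 2 in a single cell (6.98 ± 0.88, adjusted p = 2.009e-11), and Saa3, an acute phase gene, 14 of 15 (6.16 ± 0.97). For Igkc, an antibody light chain gene of plasma cells, a single cell of Cre replicate 1 held 457 of 663 UMIs (−2.06 ± 0.30). Car3 was at −4.98 ± 0.72. Retnla, known from alternatively activated macrophages, had 0 UMIs in both TKO libraries against 114 and 7 in Cre Penk-set cells, and the fitted value depends on a small added count. Serpina3n, a protease inhibitor gene, had 5 and 2 UMIs in TKO against 384 and 6 in Cre Penk-set cells, in 145 cells of Cre replicate 1 (−3.01 ± 0.58, adjusted p = 2.888e-04). When, for each gene and library, the Penk-set cell with most UMIs of that gene was left out, 12 genes were called. Mgp, Igf1, Serpina3n and Retnla were among them, and Slpi, Saa3, Car3 and Igkc were not. That alternative was chosen after seeing the data and removes a larger part of the libraries with few Penk-set cells. None of the 11 calls was kept in every alternative. After thinning, Mgp (−0.96) and Igf1 (−1.21) had adjusted p = 1.0, and Igf1 without Cre replicate 1 was at −1.09 (adjusted p = 0.682).

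**Figure D4:**
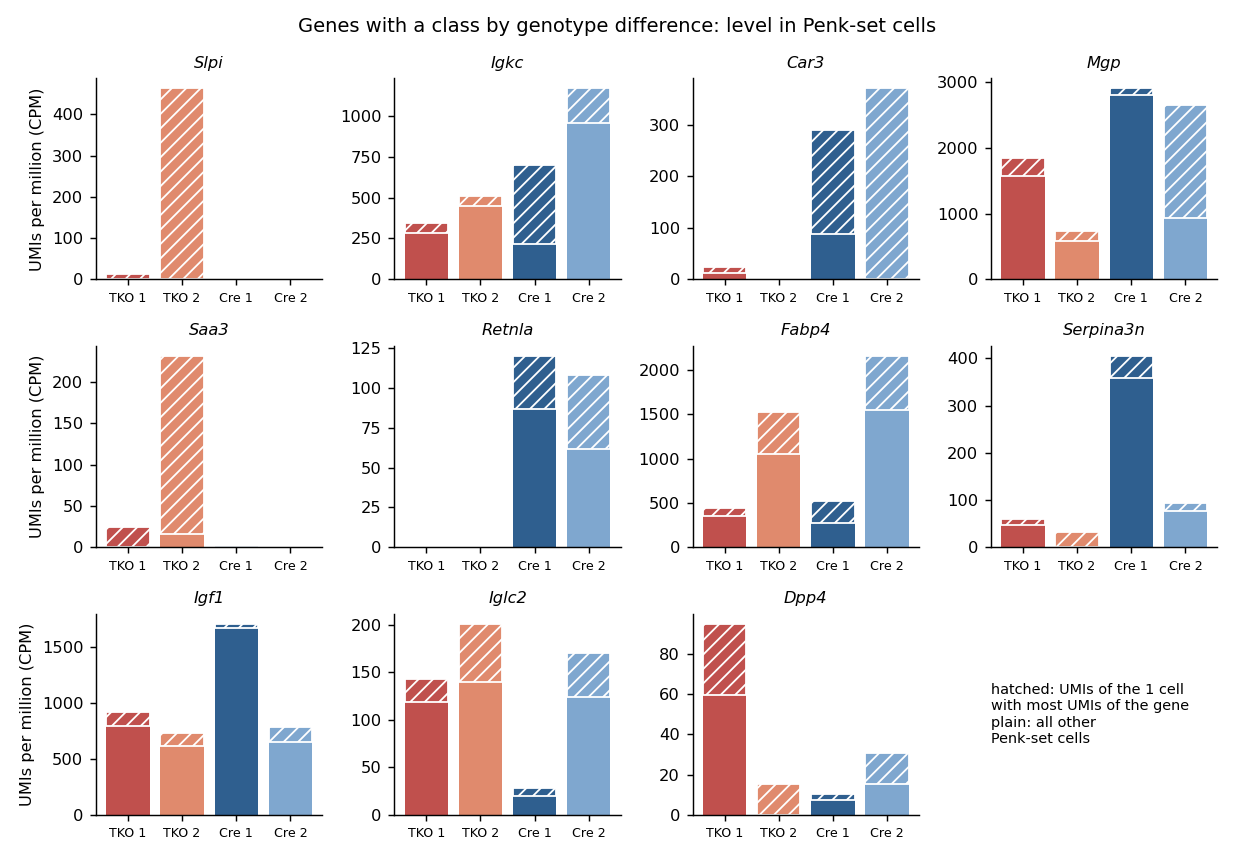
CPM in Penk-set cells of the 11 genes whose genotype difference differed from that in the other gated fibroblasts, per library, with the share of the single highest cell hatched. In Slpi and Car3 the hatched part makes up most or all of the highest bars, while Igf1 and Serpina3n in Cre replicate 1 come mostly from many cells.

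The bulk libraries, which the rule did not use, carry the same genes at tissue level. In bulk RNA, fewer cells of a type and less RNA per cell cannot be told apart. In isolated aortic fibroblasts Penk stood at 61.9, 39.1 and 58.5 CPM in TKO against 74.5, 178 and 94.2 CPM in Cre. The highest TKO library lay below the lowest Cre library. The means were 53.2 ± 12.3 CPM in TKO and 116 ± 55.0 CPM in Cre (SD, n = 3 each), a log2 fold change of −1.12 ± 0.32 that did not pass (adjusted p = 0.273). Without the filter on low counts, an edgeR setting that called 682 genes in place of 10, Penk passed (−1.13, adjusted p = 2.964e-04), while leaving out single libraries gave −1.36 to −0.67 and no call. Of the 23 genes made up of the 5 of the set and the 18 leading higher genes, 22 were tested with edgeR and 0 passed, with 3 at an unadjusted p below 0.05 and 2 called by DESeq2 (Lpl and Igfbp3), beside 0.0319% of all genes called higher and 0.0319% called lower (0.0638% together). Their median was 0.11. Cxcl14 was at 0.06 ± 0.29, Ccl11 at −0.54 ± 0.43 and Inmt at 0.35 ± 0.28 in that comparison, and Sult1e1 was too low to be tested. Lpl stood at 54.4, 58.6 and 52.6 CPM in TKO against 74.1, 104 and 76.4 CPM in Cre (−0.62 ± 0.13, adjusted p = 0.217). Igfbp3 stood at 22.7, 17.6 and 18.9 CPM against 25.2, 48.4 and 34.2 CPM (−0.86 ± 0.22, adjusted p = 0.243), again with no overlap. In the same libraries no marker of another cell type passed. All 8 macrophage markers tested had a negative log2 fold change (median −1.001) and all 10 smooth muscle and pericyte markers a positive one (0.56), and 5 of 7 mesothelial markers were negative (−0.67). Their part in the Penk, Lpl and Igfbp3 values was not tested.

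In non-stripped aorta, the tissue of the single-cell libraries, Penk stood at 4.82, 5.99 and 7.43 CPM in TKO against 6.01, 6.69 and 6.62 CPM in Cre (−0.08 ± 0.18, adjusted p = 0.833). Ccl11 stood at 14.8, 11.3 and 17.1 CPM in TKO against 12.2, 11.5 and 12.9 CPM in Cre (0.24 ± 0.16, adjusted p = 0.450). The groups overlap for both genes. Inmt stood at 6.12, 5.13 and 15.7 CPM in TKO against 6.01, 5.15 and 7.04 CPM in Cre (0.56 ± 0.40, adjusted p = 0.477), and only TKO replicate 3, the library with 0 Klf10 counts, stood apart. All 23 genes were tested with edgeR and 0 passed, with 4 at an unadjusted p below 0.05 and Gpx3 called lower in TKO by DESeq2 (median −0.02, beside 0.0594% of all genes called higher and 0.0594% lower, 0.119% together). Agt stood at 1.91, 2.44 and 2.96 CPM in TKO against 0.814, 1.65 and 1.55 CPM in Cre, above in every TKO library without passing (0.88 ± 0.32, adjusted p = 0.207). In the same libraries all 8 skeletal muscle markers had a positive log2 fold change (median 3.27). All 8 endothelial markers (−0.428) and 7 of 8 mesothelial markers (−0.435) had a negative one. None of these markers passed, and their part in the values of the named genes was not tested.

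In stripped aorta Penk stood at 99.6 and 49.3 CPM in TKO against 48.8, 62.9, 18.6 and 46.1 CPM in Cre (0.76 ± 0.45, adjusted p = 0.494), and the groups overlap. Ccl11 stood at 24.4 and 27.1 CPM in TKO against 23.3, 23.9, 14.5 and 20.6 CPM in Cre (0.32 ± 0.20, adjusted p = 0.510), with both TKO libraries above. Of the 23 genes, 22 were tested with edgeR and 0 passed, with 8 at an unadjusted p below 0.05 and Lpl called higher in TKO by DESeq2 (median 0.10, beside 0.0120% of all genes called higher and 0.0120% lower, 0.0240% together). Lpl had the smallest adjusted p of the 22, at 1482 and 1350 CPM in TKO against 429, 570, 630 and 749 CPM in Cre (1.25 ± 0.21, adjusted p = 0.113). In the same libraries all 8 adipocyte markers (median 0.89) and all 10 T and B cell markers (1.87) had a positive log2 fold change and all 8 mesothelial markers a negative one (−1.87), with 0 passing, and their part in the Lpl value was not tested. The Penk fold changes of the 3 sources thus had different signs, none of them passed, and they were not tested against each other.

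Anti-IL-9 against IgG in TKO aorta was the only bulk comparison of the 4 in which any of the 23 genes passed in edgeR. Of them, 10 fell with the antibody (13 by DESeq2), 1 of the 5 set genes and 9 of the 18 leading genes, and 0 rose, beside 11.0% of all genes called lower and 21.0% called higher (32.1% together), and 22 of 23 had a negative log2 fold change (median −0.77, against −0.01 over all genes tested). Ccl11 was the single gene of the 5 that fell, to 8.76 and 10.8 CPM with anti-IL-9, against 23.6, 13.1 and 16.7 CPM with IgG (−0.87 ± 0.26, adjusted p = 0.0441). The Ccl11 call was lost without either anti-IL-9 library (adjusted p = 0.189 and 0.0807) and without IgG replicate 1 or 3 (0.0902 and 0.0931). Penk stood at 17.6 and 14.7 CPM with anti-IL-9 against 21.7, 16.5 and 21.6 CPM with IgG (−0.30 ± 0.17, adjusted p = 0.220), and its groups overlap. Cxcl14 stood at 10.6 and 10.4 CPM against 12.9, 34.2 and 17.2 CPM (−1.03 ± 0.40, adjusted p = 0.0897). Inmt was at −0.37 ± 0.45 and Sult1e1 at −0.29 ± 0.38 in the same test.

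Among the leading genes, Cxcl12 fell to 98.1 and 118 CPM with anti-IL-9, against 256, 268 and 209 CPM with IgG (−1.18 ± 0.17, adjusted p = 0.00232). Cp fell to 47.6 and 38.9 CPM, against 73.1, 75.4 and 65.3 CPM (−0.72 ± 0.14, adjusted p = 0.00791). Steap4 fell to 50.1 and 35.9 CPM, against 107, 184 and 80.3 CPM (adjusted p = 0.0182). Both anti-IL-9 libraries lay below all 3 IgG libraries for each of the 10 genes. These genes were chosen by the test in the same libraries, so the separation adds no support. Gpx3 (−1.17, adjusted p = 0.0228), Sned1 (−1.65, 0.0258), Col4a1 (−1.05, 0.0458), Ifi205 (−1.13, 0.0113), Srpx (−1.30, 0.0253) and Gdf10 (−1.003, 0.0334) also fell. Steap4, Gpx3, Sned1, Col4a1, Ifi205, Srpx and Gdf10 each fell out of the calls when some single library was left out, the highest such adjusted p being 0.158 for Col4a1. Sparcl1, first among the leading genes of the single cells, was at 288 and 341 CPM with anti-IL-9 against 351, 289 and 294 CPM with IgG (0.01 ± 0.16, adjusted p = 0.958). Lpl stood at 2199 and 4691 CPM against 5149, 3728 and 4720 CPM (−0.40 ± 0.36, adjusted p = 0.440). Of the genes under the naming limit, Agt (−0.76, adjusted p = 0.0397) and Hsd11b1 (−0.92, 0.00676) fell and Thsd7a rose (1.58, 0.000716). Of the 10 genes, Agt and Hsd11b1, 12 calls in all, Cp, Cxcl12 and Hsd11b1 were kept in every alternative.

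Other genes of fibroblasts fell in the same comparison, in which 11.0% of all genes were called lower and 21.0% higher. General fibroblast markers fell in 9 of 12 (median −1.58), and the genes lower in Penk-set cells had 5 lower and 1 higher of 9 tested (−1.47). Of the sets that define the other fibroblast classes, 3 of 5 Pi16-set, 2 of 5 Fmod-set and 2 of 5 Cilp-set genes fell. Markers of other tissues moved in the same libraries: 8 of 8 mesothelial markers (median −4.12), 7 of 8 macrophage markers and 5 of 8 adipocyte markers fell, and 7 of 8 skeletal muscle markers (3.33) and 5 of 6 Schwann markers rose. Their part in the fall of the Penk-set genes was not tested.

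Of 16 enkephalin pathway genes tested in that comparison, Penk included, 8 rose and 4 fell (median 0.70), beside 21.0% and 11.0% of all genes. Pcsk2 was at 17.9 and 17.7 CPM with anti-IL-9 against 4.08, 3.24 and 4.38 CPM with IgG (2.19 ± 0.18, adjusted p = 2.433e-04), and Pcsk1, the other proenkephalin convertase gene, at 26.9 and 21.2 CPM against 4.19, 1.95 and 4.07 CPM (2.83 ± 0.31, adjusted p = 6.844e-04). The receptor gene Oprl1 was at 18.2 and 16.2 CPM against 2.01, 0.880 and 1.88 CPM (3.45 ± 0.32, adjusted p = 3.44e-04). Mme fell to 35.0 and 54.0 CPM, against 76.1, 79.4 and 86.0 CPM (−0.86 ± 0.19, adjusted p = 0.0150). Pcsk2, Pcsk1 and Oprl1 are mostly genes of neurons and endocrine cells, and they rose in the libraries in which Schwann markers rose, a link that was not tested.

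**Figure D5:**
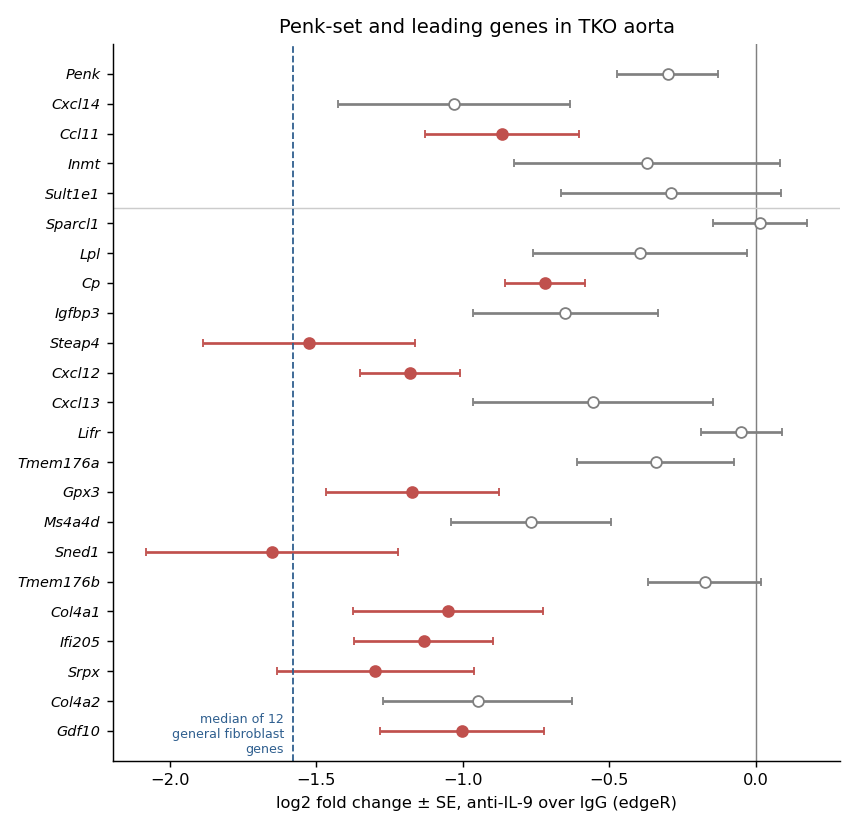
Log2 fold change ± SE (edgeR) of the 5 Penk-set genes (top) and the 18 leading higher genes in TKO aorta given anti-IL-9 over IgG (2 and 3 libraries); filled points passed at an adjusted p below 0.05 and the dashed line marks the median of 12 general fibroblast genes (−1.58). The 10 filled points all lie below 0, Sparcl1 lies at 0.01, and 22 of the 23 genes lie above the dashed line, all but Sned1.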

How the data were processed

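The authors deposited UMI counts per gene and cell for the 4 single-cell libraries and whole-number read counts per gene for the bulk libraries. Per the submitters' processing notes, Trimmomatic 0.36, STAR 2.5.2b, Subread 1.5.2, featureCounts and the GRCm38 build were used, and Cell Ranger 6.0.0 is named for the single cells; libraries were made with the 10x 3′ chemistry, per the labels' protocols. The set genes, the rule and the gene lists were chosen with earlier results of these data known. From the deposited counts, cells were kept and classed by the rule given in the text; 27 genes used by the rule were left out of the single-cell tests. Classes were compared by CPM, with genes of at least 100 UMIs and a floor of 3 counts for the lower class, as a description.

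UMIs summed per library and class, and bulk counts, were tested with edgeR 4.0.16 (quasi-likelihood, TMM, filterByExpr with a minimum count of 10; R 4.3.3, limma 3.58.1) with Benjamini-Hochberg adjustment at 0.05. DESeq2 1.42.0 was an alternative. Tests were checked on simulated counts. Named genes were the set genes, the leading genes with at least 100 CPM and, in the tests, those ranked first by p; a direction with under 5 passing genes is filled with 5 that did not pass. In TKO against Cre within Penk-set cells, 1 gene that this rule gives is not reported here. The rule named up to 6 class-by-genotype genes, and the others called there are named because they were called. The alternatives were the low-count filter, DESeq2, thinning, stricter rules and cells, a replicate block and leaving out each library. Where thinned cells were classed anew, the fibroblast gate asked for 4 matrix-gene UMIs. Same-numbered single-cell libraries deviated together (r = 0.31 over 1147 genes), which with 2 pairs does not show pairing. Bulk libraries held 17179257 to 38633457 counts. Among the stripped aorta counts, 1 column of per-sample values had no sample here and was not used. Stripped samples were grouped by all fields but their titles. Python 3.11.15, numpy 2.4.6, pandas 2.3.3 and scipy 1.17.1 were used.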

Additional observations from a re-analysis of the deposited data

Results flagged for a closer look

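The genotype difference (TKO over Cre, log2) in Penk-set cells minus that in the other gated fibroblasts passed the test of the difference for 11 genes. It was 6.98 for Slpi, 6.16 for Saa3 and 3.30 for Dpp4, a peptidase gene that marks some fibroblasts. It was −11.8 for Retnla, −4.98 for Car3, −3.01 for Serpina3n, −2.06 for Igkc, −2.01 for the light chain gene Iglc2, −1.71 for Mgp, −1.48 for the fatty acid binding protein gene Fabp4 and −1.43 for Igf1. Fabp4 stood at 439 and 1532 CPM in TKO against 523 and 2163 CPM in Cre Penk-set cells, with 233 of 495 UMIs of Cre replicate 1 in a single cell. Iglc2 stood at 143 and 201 CPM in TKO against 28.5 and 170 CPM in Cre Penk-set cells. Dpp4 rested on 8 and 1 UMIs in TKO against 10 and 2 in Cre Penk-set cells. Among 24 genes tested in the 4 stripped Cre aortas, 0 had a library apart from the others.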

How the results depend on the processing

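Of the 4 single-cell libraries, 3 held 39 to 54 Penk-set cells each. The lower share in TKO kept its direction in every alternative, with differences of −10.6 to −1.58 when single libraries were left out, −4.64 after thinning and −3.08 with 3 or more genes. Between genotypes within Penk-set cells the 0 calls became 15 without the low-count filter, 4 with the replicate block (Car3, Mgp, Spon1 and Ccl5) and 3 to 24 without single libraries. For bulk RNA no block could be used. No paired analysis was possible because the bulk labels share no replicate numbers between groups. The 11 class-by-genotype calls became 2 with at least 3 genes, 1 after thinning, 7 at 10% mitochondrial UMIs, 23 against the 3 other sets, 0 by DESeq2 and 5 to 31 without single libraries. Without the filter and by DESeq2, isolated fibroblasts gave 682 and 420 calls (10 in the main test), non-stripped aorta 766 and 794 (18) and stripped aorta 64 and 591 (4). Without single libraries they gave 3 to 10, 0 to 486 and 0 to 30, and anti-IL-9 gave 3516 to 4793 (5277). Genes at least 2-fold higher in Penk-set cells numbered 25 with at least 3 genes and 63 to 81 without single libraries (49).

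Some values changed sign. Without the highest cell of each library, an alternative chosen after seeing the data, Thbs1 was −0.34 and Slpi −0.40. After thinning Igkc was 1.48 and Dpp4 −0.44. Without single libraries, isolated fibroblasts gave −0.23 to 0.35 for Cxcl14, −0.85 to 0.11 for Ccl11 and −0.86 to 0.025 for Agt. Non-stripped aorta gave −0.25 to 0.060 for Penk, −0.11 to 0.85 for Inmt and −1.37 to 0.43 for Sult1e1 (0.0027 by DESeq2). Stripped aorta gave −0.56 to 0.39 for Cxcl14, −0.53 to 1.32 for Inmt and −0.38 to 1.12 for Agt. Anti-IL-9 gave −0.12 to 0.11 for Sparcl1 (−0.012 without the filter, −0.017 by DESeq2), −1.05 to 0.033 for Lpl, −0.25 to 0.10 for Lifr and −0.47 to 0.043 for Tmem176b. The cause was not tested. Of the other named values under anti-IL-9, 132 kept direction and side of the threshold, 13 passed newly and 22 no longer passed.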
